A study of Mus musculus with 11 samples.

Results

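The replication-dependent histone genes lie in clusters and encode the linker histone H1 and the core histones H2A, H2B, H3 and H4. They were taken here as every gene whose symbol starts with Hist1h to Hist4h, leaving out 1 symbol that ends in -ps (Hist3h2bb-ps). This gave 69 of the 52143 genes in the table, namely 6 of class H1, 20 of H2A, 18 of H2B, 12 of H3 and 13 of H4. In GRCm38 56 of them lie on chromosome 13, 10 on chromosome 3, 2 on chromosome 11 and 1 on chromosome 6. GENCODE annotates 67 as protein coding, Hist1h2al as a processed pseudogene and Hist1h2aj as an unprocessed one.

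The RNA came from RAW cells, a mouse line of macrophage type. Cells carried a short hairpin RNA, either a control hairpin (shC) or one against GIV (shGIV), the product of Ccdc88a. LPS, a bacterial cell wall component sensed by Toll-like receptor 4, was given at 100 ng/ml for 5 h, and the 0 h samples had none. The libraries used were 2 of shC at LPS 0h (replicates 1 and 3), 1 of shC at LPS 5h (replicate 2), 3 of shGIV at LPS 0h and 3 of shGIV at LPS 5h. The comparisons ask how LPS changed these genes in each line and whether the lines differed. The labels do not say whether a hairpin line is a clone or a pool, nor whether replicates were separate cultures, so p-values measure only the spread between these samples. The single shC library at LPS 5h was assumed to vary like the other groups. In the shC libraries at LPS 0h Ccdc88a stood at 10.0 and 7.69 TPM (transcripts per 1000000, a level per length), in shGIV at LPS 0h at 6.93, 5.31 and 5.58, in shC at LPS 5h at 5.77, and in shGIV at LPS 5h at 3.08, 2.62 and 3.39. The depletion of Ccdc88a did not pass the test without LPS (log2 change -0.50, adjusted p = 0.232 by limma) or with it (-0.75, adjusted p = 0.0681).

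As background, cells make the bulk of new histones while they copy their DNA, and the mRNAs of the cluster genes rise in S phase and are destroyed when replication stops. Their pre-mRNAs are cut behind a short stem-loop and most get no poly(A) tail. Slbp, the stem-loop binding protein, takes the place that a poly(A) tail has in other mRNAs. Some cluster genes can also be read through the stem-loop to a downstream poly(A) site, a form described in cells that have stopped dividing. The libraries were made from total RNA after removal of ribosomal RNA and without poly(A) selection, so both forms could enter them.

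The stem-loop is shown here because it marks where the short, non-polyadenylated mRNA ends. The listed transcripts were searched for its 16-base pattern, which is GG, 3 bases of any kind, TTNTNA, 3 bases of any kind and CC. It was found in 45 of the 69 genes, against 4.42% of 21851 other protein-coding genes. Within 100 bases of the transcript's end it was found in 22 of the 69, against 0.0961% of the others. The 16 bases came in 8 versions, of which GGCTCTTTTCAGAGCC was held by 25 genes, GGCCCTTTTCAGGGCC by 7 and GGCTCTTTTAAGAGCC by 6. The sites of 7 genes that recur in the results follow, 5′ to 3′ on the coding strand and read from GRCm38, with the stem-loop in capitals and 5 bases on each side.
Hist1h1c: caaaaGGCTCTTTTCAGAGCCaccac
Hist2h2aa2: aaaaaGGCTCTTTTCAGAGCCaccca
Hist2h2aa1: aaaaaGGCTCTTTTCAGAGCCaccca
Hist3h2a: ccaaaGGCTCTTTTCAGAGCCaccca
Hist2h3c2: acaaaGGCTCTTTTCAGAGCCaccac
Hist1h3g: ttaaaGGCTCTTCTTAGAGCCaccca
Hist1h4i: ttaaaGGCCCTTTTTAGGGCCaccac
These sites lie at chr13:23739507-23739532 (plus strand, Hist1h1c), chr3:96239779-96239804 (minus, Hist2h2aa2), chr3:96246027-96246052 (plus, Hist2h2aa1), chr11:58955167-58955192 (plus, Hist3h2a), chr3:96238480-96238505 (minus, Hist2h3c2), chr13:23535884-23535909 (plus, Hist1h3g) and chr13:22040961-22040986 (minus, Hist1h4i). The first 5 genes hold the same stem-loop. What differed among them was how far the annotated transcript ran on. It ended 35 bases behind the stem-loop in Hist2h2aa2 and Hist2h2aa1 and 47 bases behind it in Hist1h3g. It ran on for 840 bases in Hist1h1c, 1643 in Hist3h2a, 377 in Hist2h3c2 and 330 in Hist1h4i. Among all 69 genes, the listed transcript ended within 100 bases of the stem-loop in 22 and ran further in 23. It stopped with the coding sequence in 11, and held no match to the pattern in the other 13, among them Hist2h2be and Hist1h2bc. A missing match says only that these letters are not in the listed transcript.

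The genes are near copies of one another, and this limits what a value for 1 gene means. Of the 69 transcripts, 43 had fewer than 50% of their 31-base words to themselves, and 5 had none (Hist2h2aa1, Hist2h2aa2, Hist2h2bb, Hist2h3b and Hist2h3c1). All words of Hist2h2aa2 are also found in Gm20632, a gene annotated as antisense, which stood between 0.495 and 1.48 TPM in the 9 libraries. How kallisto was set to use strand is not given in the sources used here, so reads of a gene and its antisense partner cannot be told apart. Hist2h2be (97.2% of its words unique), Hist1h1c (88.6%), Hist3h2a (67.9%), Hist1h2bc (66.5%) and Hist1h4i (64.4%) are the best separated of the 22 genes that could be tested. By contrast Hist1h2bq and Hist1h2br, which share most of their words with each other, have 1.74% and 10.5% to themselves, Hist1h4k 13.8% and Hist1h2al 18.1%.

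The cluster genes were low in these libraries. The median gene of the 69 had a mean of 0.331 TPM over the 9 libraries, 37 genes stayed under 1 TPM in each of the 9, and Hist1h1t, Hist1h2aa, Hist1h2ba and Hist1h2bj were listed at 0 in all 9. Together the 69 made up between 0.00419% and 0.0127% of a library. The highest mean was that of Hist2h2aa2 (14.3 TPM), followed by Hist1h1c (11.3), Hist1h2bc (8.45), Hist1h2al (6.47) and Hist2h2be (4.24). These 5 held between 46.9% and 59.3% of the summed cluster level. For testing, a gene needed a log2(TPM + 1) of at least 1 in 2 of the 9 libraries, which 22 of the 69 reached (1 of H1, 9 of H2A, 5 of H2B, 3 of H3 and 4 of H4), and 13711 genes did in all. A gene can pass this filter through 1 group alone, so the counts below are of these 22 and not of the family. Just inside it were Hist1h3i (second-highest value 1.22) and Hist1h4h (1.24), and just outside it Hist1h4f (0.97) and Hist2h3b (0.95). Hist1h4f had a mean of 0.717 TPM and a highest value of 1.65 TPM, and Hist2h3b 0.459 and 1.53 TPM.

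In shC cells, 5 of the 22 tested genes were lower after LPS and 1 was higher (limma, Benjamini-Hochberg adjusted p under 0.05). In the background, 44.1% of all tested genes were lower and 14.8% higher, and of the cluster genes 22.7% were lower. Most of the 22 were low, with SEs up to 0.65, which limits how many can be called. A stricter filter asked for a log2(TPM + 1) of at least 3. With it 3 of 5 cluster genes were lower and 1 higher, where 51.1% of all genes were lower and 17.8% higher. The median log2 change was -0.39 over the 22 and -0.40 over all 13711. Changes are also given relative to that median. With TMM scaling, which sets the median of all genes close to 0, 2 cluster genes were higher and 4 lower, where 26.3% of all genes were higher and 26.5% lower.

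In shGIV cells, 8 of the 22 were lower after LPS (36.4%) and none was higher by limma, where 59.7% of all tested genes were lower and 15.8% higher. Unadjusted p-values were under 0.05 for 9 of the 22, and the share of all genes at that looser threshold is not given here. The median log2 change was -0.63 over the 22 and -0.54 over all genes. With TMM scaling 6 were lower and 2 higher (Hist3h2a and Hist2h2aa1), where 35.4% of all genes were lower and 31.9% higher. The same 5 genes fell in both lines (Hist1h1c, Hist2h2be, Hist1h2bc, Hist1h3g and Hist1h4k), while Hist1h4i, Hist1h2bq and Hist1h2br passed the test in shGIV cells and not in shC cells. For no cluster gene did the difference between the 2 LPS responses pass the test.

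Hist1h1c encodes histone H1.2, a linker histone that binds DNA where it enters and leaves the nucleosome. It is a single-exon gene at chr13:23738808-23740367 and the only tested H1 gene. It stood at 20.4 and 24.3 TPM in shC and at 17.2, 16.8 and 16.3 TPM in shGIV without LPS. After LPS it stood at 2.38 TPM in shC and at 1.27, 1.73 and 1.45 TPM in shGIV. All libraries with LPS lay far below all without it, with no overlap in either line. The mean level in TPM was 9.39-fold lower in shC cells and 11.3-fold lower in shGIV cells. Log2 changes here and below are of TPM + 1 and so do not equal such folds. They were -2.78 ± 0.15 SE in shC (adjusted p = 3.46e-06 by limma) and -2.84 ± 0.10 in shGIV (adjusted p = 1.18e-07 by limma). Relative to the median gene these changes were -2.38 and -2.30. The other 5 H1 genes did not reach the filter. Hist1h1b peaked at 0.892 TPM and Hist1h1a at 0.326 TPM.

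Among the H2B genes, Hist2h2be (chr3:96221119-96223738, single exon) moved in the same way as Hist1h1c. It was at 7.79 and 7.60 TPM in shC and at 7.61, 6.41 and 5.88 TPM in shGIV without LPS, and at 0.492 TPM in shC and 0.897, 0.807 and 0.665 TPM in shGIV with it. Every library with LPS was under 1 TPM and every one without it above 5. The log2 change was -2.54 ± 0.17 in shC (adjusted p = 1.17e-05 by limma) and -2.09 ± 0.11 in shGIV (adjusted p = 1.33e-06). Hist1h2bc (chr13:23684199-23692908), one of 5 cluster genes whose listed transcript has more than 1 exon, changed far less. Its levels were 11.0 and 12.4 TPM in shC and 9.62, 9.77 and 10.0 TPM in shGIV without LPS, and 7.55 TPM in shC and 5.36, 4.76 and 5.46 TPM in shGIV with it. Groups again did not overlap, and the log2 changes were -0.57 ± 0.12 (adjusted p = 0.00371 by limma) and -0.80 ± 0.08 (adjusted p = 3.26e-05). These are close to the change of the median gene (-0.17 and -0.26 relative to it), and in shC cells the call was lost with TMM scaling (log2 change -0.17), quantile normalization and removal of the GC or length trend. In shGIV cells it was lost with quantile normalization (-0.13).

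Hist1h2bq and Hist1h2br, an H2B pair that the 31-base words barely tell apart, ran in parallel. Hist1h2bq was at 2.12 and 5.05 TPM in shC and 2.22, 2.65 and 3.36 TPM in shGIV without LPS, then at 2.75 TPM in shC and 0.926, 1.75 and 1.39 TPM in shGIV. The shC library with LPS lay between the 2 without it, and the shGIV groups did not overlap. Log2 changes in shGIV were -0.67 ± 0.26 for Hist1h2bq and -0.68 ± 0.27 for Hist1h2br, with adjusted p = 0.0458 and 0.0481 by limma. Both calls were lost in 13 of 21 alternative fits, among them TMM scaling and the omission of any 1 of the shGIV libraries other than replicate 2 at LPS 5h. In shC cells the changes were -0.21 for each and did not pass the test (adjusted p = 0.666 and 0.682).

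**Figure D1:**
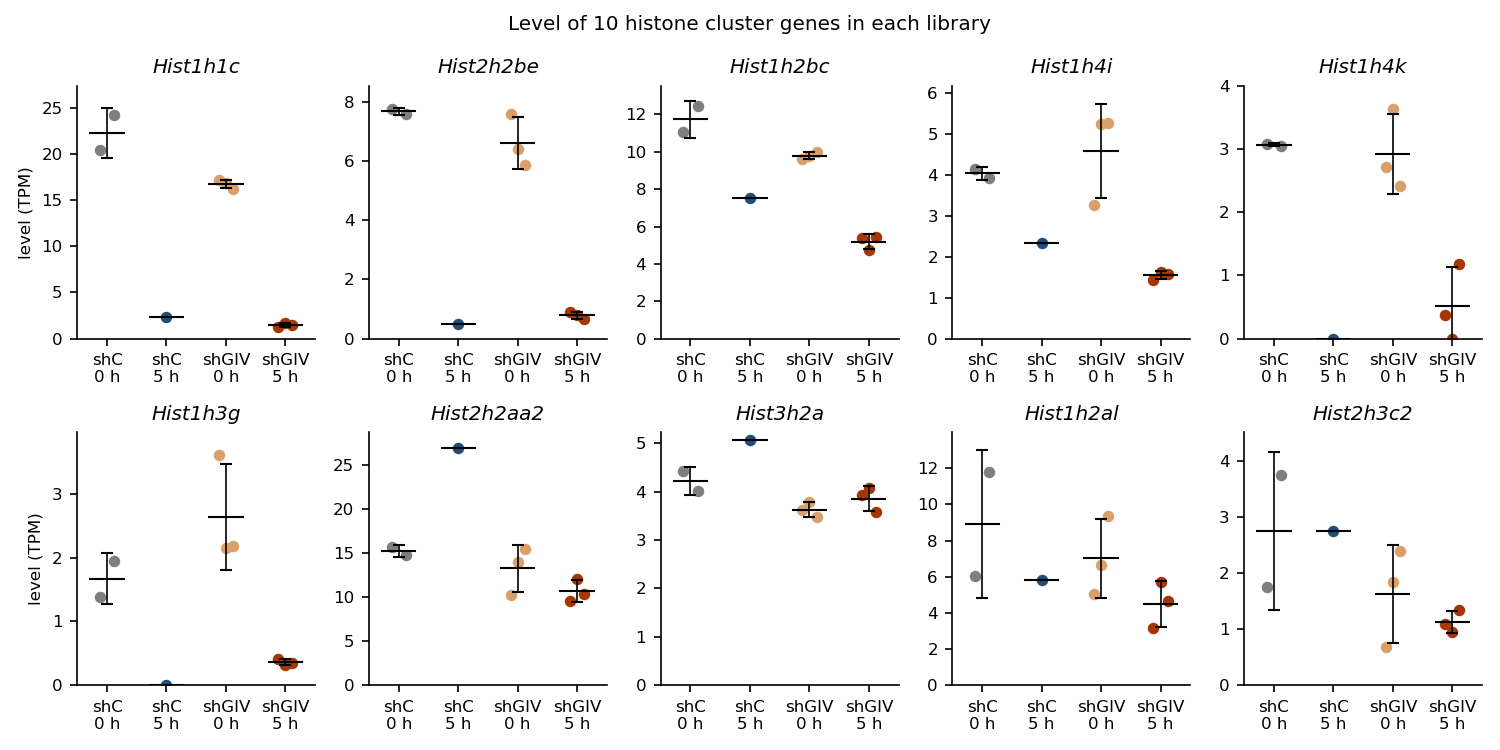
Level in TPM (vertical axes, linear, from 0) of 10 cluster genes in the 9 libraries by hairpin and time of LPS; points are libraries, horizontal lines group means and bars ± SD (shC at LPS 5h is 1 library). Hist1h1c and Hist2h2be drop in all libraries with LPS, Hist3h2a stays between 3.48 and 5.07 TPM, and Hist2h2aa2 is highest in the shC library with LPS (26.9 TPM).

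The H2A genes gave the highest cluster levels with LPS. Hist2h2aa2 (chr3:96239749-96240276) was at 15.7 and 14.8 TPM in shC and 10.3, 14.0 and 15.5 TPM in shGIV without LPS, then at 26.9 TPM in the shC library and 9.58, 12 and 10.3 TPM in shGIV. The shC library with LPS thus lay above the 8 others, while the shGIV groups overlapped. In shC cells it rose by 0.78 ± 0.22 on the log2 scale (adjusted p = 0.0164 by limma). This call rests on that 1 library, and it was lost without shC replicate 3 at LPS 0h and with all 10 libraries. In shGIV cells the change was -0.28 ± 0.15 (adjusted p = 0.115). It was called lower without shGIV replicate 1 at LPS 0h, but turned to 0.26 with TMM scaling and to a called 0.49 with each library's GC trend removed. Its near copy Hist2h2aa1 (chr3:96245497-96246082), which shares the stem-loop printed above, was at 2.46 and 3.56 TPM in shC and 0, 1.51 and 1.40 TPM in shGIV without LPS, and at 2.23 TPM in shC and 2.64, 4.42 and 1.22 TPM in shGIV with it. How reads were divided between the 2 copies and their antisense genes cannot be seen in TPM.

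Hist3h2a, an H2A gene apart from the large clusters (chr11:58954685-58956830), barely changed. It was at 4.42 and 4.01 TPM in shC and 3.61, 3.78 and 3.48 TPM in shGIV without LPS, and at 5.07 TPM in shC and 3.93, 4.07 and 3.57 TPM in shGIV with it. The log2 changes of 0.22 ± 0.13 and 0.07 ± 0.09 did not pass the test (adjusted p = 0.179 and 0.485 by limma). Relative to the median gene they were 0.62 and 0.61, and with TMM scaling it was called higher in both lines (0.58 and 0.54). Of its 31-base words 32.1% are shared with Trim17, which stood between 0.0206 and 0.193 TPM. The pseudogene Hist1h2al, which is on the list by its symbol, was at 6.01 and 11.8 TPM in shC and 5.01, 6.66 and 9.37 TPM in shGIV without LPS, and at 5.84 TPM in shC and 3.16, 5.70 and 4.65 TPM in shGIV with it. Its log2 changes of -0.47 and -0.53 were within the error (SE 0.44 and 0.29). It shares 79.9% of its words with Gm20632, as Hist2h2aa2 does. Hist1h2ai was listed at 0 in both shC libraries without LPS and at 1.48 TPM in the one with it, against 2.36, 1.47 and 2.82 TPM in shGIV without LPS and 0, 1.42 and 1.24 TPM with it. Its log2 changes of 1.31 ± 0.52 in shC and -0.85 ± 0.35 in shGIV did not pass the test (adjusted p = 0.0622 and 0.0554 by limma). It was called higher in shC with the GC or length trend removed, with a pseudocount of 0.1 and without shGIV replicate 1 at LPS 5h. It was called lower in shGIV in a robust fit and without shGIV replicate 2 at LPS 0h or at LPS 5h.

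The H3 and H4 genes were low throughout, and those that changed fell. Hist1h3g (chr13:23535422-23535951) was at 1.39 and 1.95 TPM in shC and 3.61, 2.15 and 2.18 TPM in shGIV without LPS. With LPS it was listed at 0 in shC and stood at 0.412, 0.320 and 0.341 TPM in shGIV. Hist1h4k (chr13:21750194-21750505) was at 3.09 and 3.06 TPM in shC and 2.72, 3.63 and 2.42 TPM in shGIV without LPS, then listed at 0 in shC and at 0.376, 0 and 1.19 TPM in shGIV. For both genes the groups did not overlap. Differences of log2(TPM + 1) were -1.41 ± 0.28 and -1.40 ± 0.19 for Hist1h3g (adjusted p = 0.00355 and 0.000231 by limma) and -2.03 ± 0.42 and -1.43 ± 0.28 for Hist1h4k (adjusted p = 0.00394 and 0.00183), shC first. These are differences on that scale and not folds, as the shC library is listed at 0. With the GC trend removed the shGIV change of Hist1h4k was -0.68 and not called.

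Hist1h4i (chr13:22040636-22041362) was at 4.14 and 3.93 TPM in shC and 3.26, 5.25 and 5.27 TPM in shGIV without LPS, and at 2.33 TPM in shC and 1.44, 1.63 and 1.57 TPM in shGIV with it. Libraries with LPS were the lower ones in both lines. The fall passed the test in shGIV (log2 change -1.11 ± 0.16, adjusted p = 0.000324 by limma) and not in shC (-0.60 ± 0.24, adjusted p = 0.063), where it was called only without shGIV replicate 1 at LPS 0h. Hist2h3c2, the H3 gene with the highest mean, ranged from 0.673 to 3.75 TPM with overlapping groups, and its changes of 0.05 ± 0.45 and -0.25 ± 0.30 did not pass the test. Hist1h4n was at 2.77 and 1.32 TPM in shC and 1.22, 1.78 and 1.72 TPM in shGIV without LPS, and at 0.829 TPM in shC and 0, 1.41 and 0.510 TPM in shGIV with it. Its changes of -0.69 and -0.73 had SEs of 0.50 and 0.33, and neither passed the test, except in shGIV without its replicate 2 at LPS 5h. Hist1h3i and Hist1h4h were the tested genes nearest the filter. Hist1h3i was at 0.787 and 2.53 TPM in shC and 0, 0.378 and 0.993 TPM in shGIV without LPS, and at 0.0282 TPM in shC and 1.33, 0.302 and 0 TPM in shGIV with it. Only the shGIV groups overlapped, and the changes were -1.29 ± 0.63 and 0.05 ± 0.42, with no call. Hist1h4h was at 1.36 and 0.963 TPM in shC and 1.15, 1.35 and 1.84 TPM in shGIV without LPS, and at 0.916 TPM in shC and 0.161, 1.27 and 0.763 TPM in shGIV with it. Here too the shGIV groups overlapped, and changes of -0.17 ± 0.39 and -0.54 ± 0.26 did not pass the test (adjusted p = 0.734 and 0.0904 by limma), except in shGIV without its replicate 2 at LPS 5h.

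**Figure D2:**
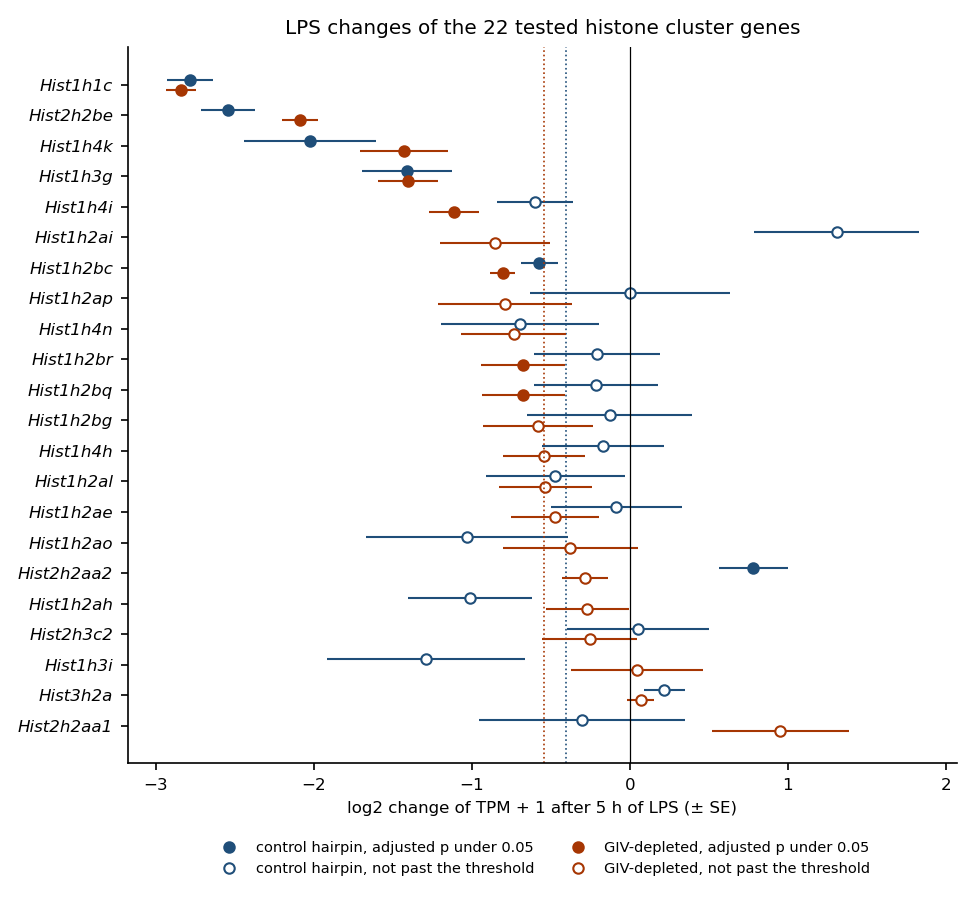
Change in log2(TPM + 1) after 5 h of LPS (horizontal axis, ± SE) for the 22 tested cluster genes in shC (blue) and shGIV (red) cells; filled points passed an adjusted p of 0.05 and dotted lines are the medians over all 13711 tested genes (-0.40 and -0.54). Hist1h1c and Hist2h2be lie below -2 in both lines, and most others lie near the dotted lines.

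Without LPS, depletion of GIV left no cluster gene past the adjusted threshold by limma, where 1.22% of all tested genes passed it. An unadjusted p under 0.05 was found for 4 of 22, and the share of all genes at that looser threshold is not given here. Of those 4, the smallest p-values belonged to the H2A genes Hist1h2ah and Hist1h2ai, named after their values were seen. Hist1h2ah was at 2.36 and 1.54 TPM in shC and at 0, 0 and 0.749 TPM in shGIV (difference of log2(TPM + 1) -1.28 ± 0.29, adjusted p = 0.117 by limma). Hist1h2ai, listed at 0 in both shC libraries, was higher in all 3 of shGIV (1.66 ± 0.39, adjusted p = 0.125, called only without shGIV replicate 1 at LPS 5h). Neither pair of groups overlapped, and these genes have 7.47% and 7.99% of their 31-base words to themselves. Hist1h1c was lower in all 3 shGIV libraries than in both shC libraries (log2 change -0.39 ± 0.11, adjusted p = 0.19, called only with the GC trend removed), and so was Hist1h2bc (-0.24 ± 0.09, adjusted p = 0.334). Hist2h2be (-0.19 ± 0.13) and Hist2h2aa2 (-0.20 ± 0.16) overlapped between the lines. With LPS, 1 of the 22 was lower in shGIV, Hist2h2aa2, where 4.38% of all genes were lower. Its 3 shGIV libraries, at 9.58 to 12 TPM, lay below the 26.9 TPM of the lone shC library (log2 change -1.27 ± 0.21, adjusted p = 0.0175 by limma). The call was lost without shGIV replicate 3 at LPS 5h, with quantile normalization, with all 10 libraries and in a fit of these 2 groups only. Hist1h2bc changed by -0.47 ± 0.11 (adjusted p = 0.0556, called without shC replicate 1 or 3 at LPS 0h), Hist1h1c by -0.45 ± 0.14 (adjusted p = 0.109) and Hist2h2be by 0.26 ± 0.16 (adjusted p = 0.394). In the test of the difference between the LPS responses, Hist2h2aa2 had -1.06 ± 0.26 (adjusted p = 0.12). None of the 22 passed the adjusted threshold by limma, where 0.226% of all tested genes did. An unadjusted p under 0.05 was found for 2 of the 22, again without the share of all genes.

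Sums over a class depend less on how shared reads were divided among copies than single genes do, although transcript lengths and genes outside the family still enter. The H1 sum fell from 22.8 TPM in shC (mean, n = 2) to 2.44 TPM with LPS, and from 17.7 ± 0.756 to 1.71 ± 0.136 TPM (SD, n = 3) in shGIV. The H2B sum went from 31 to 15.5 TPM in shC and from 27.1 ± 1.10 to 10.5 ± 1.11 TPM in shGIV, the H3 sum from 9.73 to 3.53 and from 9.87 ± 0.868 to 3.43 ± 0.819 TPM, and the H4 sum from 12.6 to 5.25 and from 12.9 ± 2.32 to 4.99 ± 1.61 TPM. In these 4 classes each library with LPS was below each one without it. The H2A sum did not follow them in shC, where it was 39.9 TPM without and 46.1 TPM with LPS. In shGIV it was 35.7 ± 3.79 and 25.9 ± 4.29 TPM, a log2 ratio of -0.46 that turned to 0.12 with TMM scaling. H3 and H4 sums were nearly equal in the lines at each time. No test was made on sums. In bulk RNA, fewer cells with a transcript and less of it per cell cannot be told apart.

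**Figure D3:**
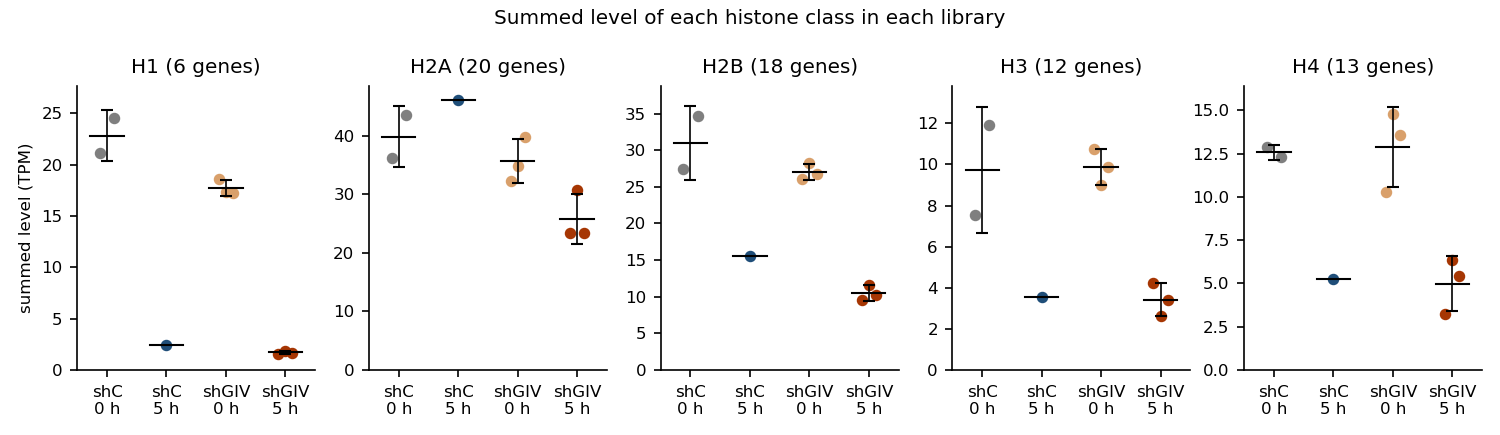
Summed TPM of all genes of each histone class (vertical axes, linear, from 0) per library, by hairpin and time of LPS; points are libraries, lines group means and bars ± SD. H1, H2B, H3 and H4 sums are lower in all libraries with LPS, while the H2A sum is 46.1 TPM in the shC library with LPS and 39.9 TPM on average without.

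The 5 genes with the highest means, among them Hist2h2aa2, did not carry the fall alone. Without them, the sum of the other 64 genes was 50.1 TPM in shC and 49.7 ± 1.18 TPM in shGIV without LPS, and 29.7 and 23.8 ± 3.84 TPM with it. With only Hist1h1c and Hist2h2be taken out, the sum went from 86.0 to 70.0 TPM in shC. In shGIV it went from 79.8 ± 6.02 to 44.2 ± 5.81 TPM. The median log2 change of all genes was -0.40 in shC and -0.54 in shGIV. The number of cluster genes above 0 went from 50 and 48 in shC, and 51, 56 and 52 in shGIV, to 38 in shC and 42, 46 and 43 in shGIV with LPS. Over all genes the 9 libraries had between 19795 and 21678 above 0. Read totals are unknown, and the part that depth has in these counts was not tested. Grouped by annotated end, the 22 genes whose transcript stops near the stem-loop summed to 29.4 TPM in shC and 28 ± 3.63 TPM in shGIV without LPS, and to 32.4 and 17.8 ± 4.17 TPM with it. The 23 genes annotated beyond the stem-loop summed to 41.4 and 34.5 ± 0.244 TPM, and to 18.0 and 11.9 ± 0.889 TPM. Of these sums Hist1h1c alone held 22.4 and 16.8 TPM without LPS, and 2.38 and 1.49 TPM with it. Hist2h2aa2 is 26.9 of the 32.4 TPM in the shC library with LPS. A TPM divides by the annotated length, so a gene whose short mRNA is counted against a long transcript gets a lower value than 1 annotated to the stem-loop. How far reads ran past each stem-loop cannot be read from gene-level values.

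The factors that make and break down histone mRNA mostly stood above the histone genes in TPM. Of 25 listed factors, all tested, 3 were higher and 15 lower in shC, and 3 higher and 21 lower in shGIV after LPS, with medians of -0.54 and -0.84 beside -0.40 and -0.54 for all genes. Of all tested genes 44.1% and 59.7% were lower and 14.8% and 15.8% higher. With TMM scaling 24 factors were tested, and 7 were higher and 6 lower in shC, and 6 and 13 in shGIV. Of all genes 26.3% were then higher and 26.5% lower in shC, and 31.9% and 35.4% in shGIV. With quantile normalization the counts were 5 and 12, and 4 and 17. Of all genes 21.9% and 31.6%, and 27.7% and 40.4%, were higher and lower in that fit. With all 10 libraries the counts were 0 in either direction in both lines. Slbp went from 57.7 ± 2.4 TPM (SD, n = 2) to 18.6 TPM in shC and from 61.0 ± 1.5 to 19.3 ± 1.6 TPM (n = 3) in shGIV (log2 changes -1.59 and -1.61, adjusted p = 1.1e-05 and 3.8e-07 by limma). Npat, the coactivator that switches on the clusters in S phase, fell (log2 changes -1.5 and -1.48). Casp8ap2, another protein of the bodies where histone genes are transcribed, changed by -0.75 in shC (adjusted p = 0.14) and fell by 1.27 in shGIV. Eri1, an exonuclease that trims the stem-loop end, fell (-1.14 and -1.32). Tut7, which adds uridines to RNA ends, rose by 1.57 and 1.42, and Lsm10, a subunit of the U7 particle that guides the cut, rose by 1.08 and 0.98. Slbp, Npat, Eri1, Tut7 and Lsm10 kept their directions and calls with TMM scaling.

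Histones encoded outside the clusters, most of whose mRNAs carry poly(A) tails, were mostly far more abundant. Of 11 genes, 10 were tested; 1 was higher and 6 lower in shC, and 1 higher and 9 lower in shGIV, beside the 44.1% and 59.7% of all genes that were lower and the 14.8% and 15.8% that were higher. The medians were -1.02 and -1.37. With TMM scaling 2 were higher in each line, and 5 and 7 lower, and with all 10 libraries none was higher, and 0 and 2 were lower. Of all genes 26.3% and 31.9% were higher and 26.5% and 35.4% lower with TMM scaling. With all 10 libraries 0.381% and 10.4% were lower. H3f3b, one of 2 genes for the replacement histone H3.3, rose by 1.42 and 1.34, from 375 ± 37 to 1002 TPM in shC and from 373 ± 14 to 948 ± 30 TPM in shGIV. H3f3a, the other, changed by -0.10 (adjusted p = 0.25) and -0.27 (adjusted p = 0.0011), and by 0.34 and 0.32 with TMM scaling. H2afz, the H2A.Z gene, fell (log2 changes -1.55 and -1.70), and so did H2afv (-2.84 and -2.59) and H2afx (-2.83 and -3.24), which is known to give both a stem-loop and a polyadenylated mRNA. H1f0, an H1 gene that is not tied to replication, fell (-2.14 and -2.54). Its mean went from 102 to 22.4 TPM in shC and from 97.8 to 16.1 TPM in shGIV. H1fx, the other H1 gene of this list, reached at most 2.07 TPM. It changed by -0.34 in shC (adjusted p = 0.27 by limma) and by -1.04 in shGIV (adjusted p = 0.0006). The mean of Hist1h1c went from 22.4 to 2.38 TPM in shC and from 16.8 to 1.49 TPM in shGIV. Cenpa, the centromeric H3, fell (-1.56 and -2.01).

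Among 16 histone chaperones and enzymes of new histones, 1 was higher in both lines and 14 and 15 were lower (medians -1.0 and -1.20), again beside 44.1% and 59.7% lower among all genes. With TMM scaling 12 and 13 were lower and with all 10 libraries 0 and 3, with 1 higher each time. Of all genes 26.5% and 35.4% were lower with TMM scaling, and 0.381% and 10.4% with all 10 libraries. Daxx, a chaperone of H3.3, rose by 4.08 and 4.07, from 26.2 ± 3.8 to 458 TPM in shC. Chaf1b, which places new H3 and H4 on copied DNA, fell (log2 changes -3.16 and -3.66), as did Asf1b (-2.33 and -2.72) and Nasp (-2.25 and -2.32). All 30 genes of the S phase and replication list were lower in both lines (medians -2.23 and -2.52), 29 in each with TMM scaling, and 1 and 16 with all 10 libraries. Ccne2, the cyclin E2 gene, had log2 changes of -3.92 and -4.04, Tk1 of -3.78 and -4.11, Rrm2 of -3.52 and -4.02, and Cdc6 of -3.38 and -3.65. Set beside these, the cluster genes' medians of -0.39 and -0.63 lay near those of all genes. Most cluster genes were low, where adding 1 to the TPM shrinks a change. With a pseudocount of 0.1 their medians were -0.46 and -1.03, beside -0.46 and -0.64 for all genes. In the comparisons of the lines no gene of these 4 lists passed the test without LPS. With LPS Asf1a of the 16 chaperones, and Ccna2 and Rrm2 of the 30 S phase genes, were lower in shGIV, and no gene of the other lists was. Of all tested genes 4.38% were lower in this comparison, which has 1 shC library. Of other RNAs without a poly(A) tail, mostly annotated ribosomal RNA genes, 72 were tested, and 3 were higher and 2 lower in shC and 1 higher and 5 lower in shGIV after LPS, where 44.1% and 59.7% of all genes were lower and 14.8% and 15.8% higher. Their median log2 changes were 0.58 and 0.69. This list includes Mir6236, and its sum differed between replicates, at 93562 and 53448 TPM in shC without LPS. Ribosomal RNA was removed from the libraries, and the part that leftover RNA has in these values was not tested.

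**Figure D4:**
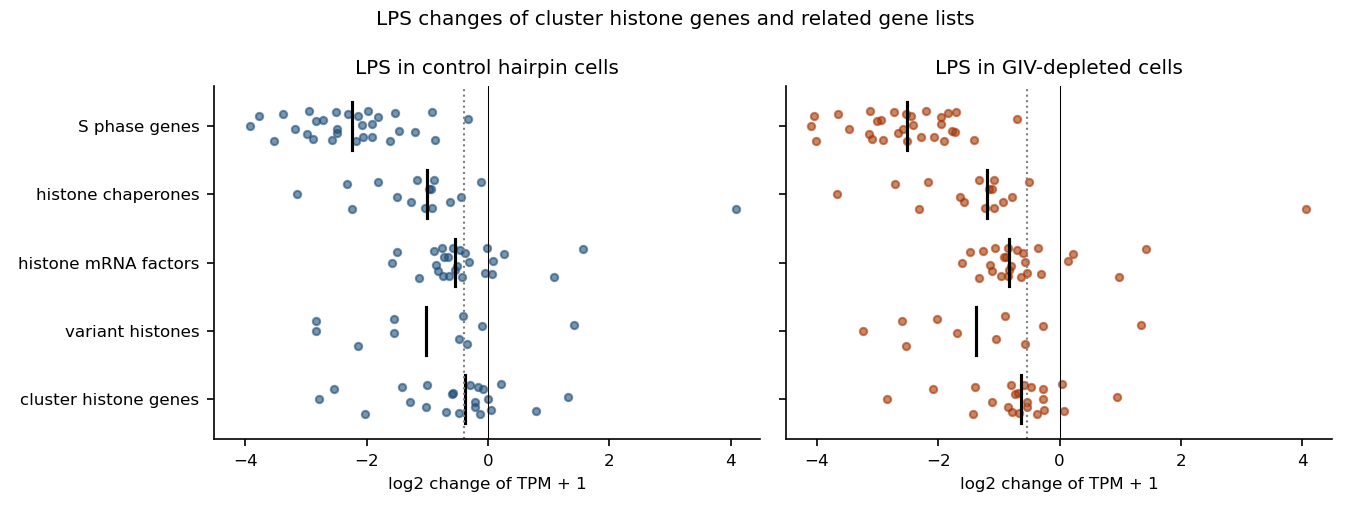
Change in log2(TPM + 1) after LPS (horizontal axes) of each tested gene of 5 groups in shC (left) and shGIV (right); points are genes, black bars group medians and dotted lines the medians of all tested genes. S phase genes have medians of -2.23 and -2.52, while cluster histone genes have -0.39 and -0.63, near the dotted lines.

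RefSeq promoters of GRCm38.p6 were available for 62 of the 69 genes (63 windows of 250 bases before the start), among 32851 in the table. On either strand CCAAT was found in 82.5% of the cluster windows and 33.8% of all windows, and TATAAA in 46.0% and 12.4%. The octamer ATTTGCAT, a motif known from H2B promoters, was in 38.9% of H2A and 41.2% of H2B windows, in none of the H1, H3 and H4 windows, and in 1.60% of all. The H1 box AAACACA was in 5 of the 6 H1 windows and 6.25% of all. The windows of Hist1h1c, with the most negative log2 changes, and of Hist3h2a, with changes near 0, are printed with the motifs in capitals, on the strand of the gene.
Hist1h1c: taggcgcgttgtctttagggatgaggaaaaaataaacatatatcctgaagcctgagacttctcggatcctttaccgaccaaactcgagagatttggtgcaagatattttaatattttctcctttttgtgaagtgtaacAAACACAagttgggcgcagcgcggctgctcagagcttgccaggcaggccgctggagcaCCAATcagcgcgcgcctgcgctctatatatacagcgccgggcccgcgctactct
Hist3h2a: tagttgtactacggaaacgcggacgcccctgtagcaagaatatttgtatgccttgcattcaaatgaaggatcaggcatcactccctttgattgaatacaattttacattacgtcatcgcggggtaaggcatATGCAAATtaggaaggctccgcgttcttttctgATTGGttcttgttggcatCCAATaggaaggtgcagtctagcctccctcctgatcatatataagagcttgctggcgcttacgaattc
They lie at chr13:23738557-23738806 and chr11:58954435-58954684, both on the plus strand. The Hist1h1c window holds 1 H1 box and 1 CCAAT, and the Hist3h2a window 2 CCAAT matches, one of them read on the other strand as ATTGG, and 1 octamer, likewise read as ATGCAAAT. No sequence shows whether a factor was bound.

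The libraries had between 19795 and 21678 genes above 0, and their read totals are unknown, as TPM keeps none. Macrophage markers were all expressed, T cell, epithelial and fibroblast markers stayed under 1 TPM, and the highest B cell and endothelial markers were Pax5 at 1.13 and Pecam1 at 1.05 TPM. Replicate 2 of shC at LPS 0h was left out, since the microRNA gene Mir6236 took up 57.8% of it against 3.79% to 8.78% of the others. With it, LPS lowered 1 cluster gene in shC (Hist1h4k), where 0.381% of all genes were lower, and 4 in shGIV (Hist1h1c, Hist1h3g, Hist1h4k and Hist2h2be), where 10.4% were. Replicate 3 of shC at LPS 5h was not analysed here.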

How the data were processed

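Ribosome-depleted stranded libraries were read in pairs of 100 bases, per the labels. The authors deposited log2 values of TPM + 1 for each gene. Per the submitters' processing notes, kallisto 0.45.0 and GRCm38 were used. The annotation release is not given in the sources used here. TPM keeps no read totals (each library sums to 1000000), so counting precision is unknown. Genes were tested with limma 3.58.1 in R 4.3.3: 1 model of 4 groups, 9 libraries, 5 residual degrees of freedom, mean-variance trend, Benjamini-Hochberg adjustment over all 13711 tested genes. Lengths, sites and shared words came from GENCODE M21, and lengths were found for 98.3% of genes. Tables used Python 3.11.15.

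Members and lists were chosen with earlier results of these data known. Described in full were the 3 tested genes of each class with the highest mean, the 3 largest called changes per direction and comparison, and those nearest the filter; per list, up to 4 called genes with the largest change, and 9 further genes by name. Other genes were named after their values were seen. Set numbers were not used to pair samples in the main fit. On simulated data the fit was tested.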

Additional observations from a re-analysis of the deposited data

Results flagged for a closer look

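In the left-out library, replicate 2 of shC at LPS 0h, 12 cluster genes stood above each of the 9 other libraries, although its summed cluster level of 41.7 TPM was below that of each of them (41.9 to 127 TPM). This library drew attention because the main comparisons leave it out. Hist1h4k stood at 3.94 TPM against at most 3.63 in the others, Hist1h3i at 3.35 against 2.53, and Hist2h2ac at 1.41 against 0.570. The same library held Hist1h1c at 1.04 TPM. The part that its composition has in these values was not tested.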

How the results depend on the processing

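Of the 5 counts of called cluster genes, the one of the difference between the LPS responses stayed 0 in every alternative. For LPS in shC (6 of 22 tested) leaving out single libraries gave 5 to 7 of 20 to 22, and all 10 libraries gave 1 of 26. For LPS in shGIV (8 of 22) leaving out single libraries gave 6 of 21 to 11 of 22, all 10 libraries 4 of 26, no filter 17 of 65 and the stricter filter 3 of 5, all lower but 1 (without shGIV replicate 3 at LPS 5h). Among all genes, 30.6% were lower with no filter and 67% with the stricter one. With the GC trend removed 5 of 25 cluster genes were lower and 4 higher in shGIV. The split was 6 and 3 of 25 with the length trend removed, and 5 and 2 of 23 with quantile normalization. Of all genes 32.8%, 31.1% and 40.4% were lower in these 3 fits, and 37%, 35% and 27.7% higher. For depletion with LPS (1 of 22) leaving out single libraries gave 0 to 2. It gave 0 without shGIV replicate 3 at LPS 5h, and 2 without shC replicate 1 or 3 at LPS 0h, adding Hist1h2bc as lower. A pseudocount of 0.1 gave 2 of 22, adding Hist1h3g as higher, a gene listed at 0 in the lone shC library. All 10 libraries, quantile normalization, the replicate block and a fit of the 2 groups only gave 0. For depletion without LPS (0 of 22) removing the GC trend gave 1 of 25 (Hist1h1c) and leaving out single libraries 0 to 1 (Hist1h2ai, without shGIV replicate 1 at LPS 5h). With the set number as a replicate block, 5 genes were called for LPS in shC and 9 in shGIV, and Hist2h2aa2 lost both its calls (0.59 for LPS in shC, -1.14 for depletion with LPS). Each library's deviations from its group mean were also correlated between groups over the 13711 tested genes. These correlations of deviations, not of levels, ran from -0.0013 to 0.0972 for the same set, and in shGIV each set correlated best with its own number. Between different sets in shGIV they ran from -0.0707 to -0.0042. Deviations within a group sum to 0, so the values for the same set and for different sets are not independent.

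Uncalled or scaling-dependent log2 changes turned sign as follows, and the cause was not tested. With all 10 libraries, LPS in shC gave Hist1h2al 0.0864, Hist1h2bc 0.48, Hist1h2bq 0.10, Hist1h2br 0.15 and Hist1h4i 0.18, and depletion without LPS gave Hist1h1c 0.78, Hist1h2bc 0.81, Hist2h2aa2 0.31 and Hist2h2be 0.54. With the GC trend removed, LPS in shC gave Hist1h2al 0.12, Hist1h2bq 0.20, Hist1h2br 0.25 and Hist1h4h 0.36, and LPS in shGIV Hist1h2al 0.15, Hist1h4h 0.19, Hist1h4n 0.0229, Hist2h2aa2 0.49 and Hist2h3c2 0.52. With quantile normalization, LPS in shC gave Hist1h2al 0.0836, Hist1h2bq 0.30, Hist1h2br 0.29 and Hist1h4h 0.0880, and LPS in shGIV Hist1h2al 0.13, Hist2h2aa2 0.35 and Hist2h3c2 0.0870. With TMM scaling, LPS in shC gave Hist1h2bq 0.12, Hist1h2br 0.12 and Hist1h4h 0.0515, and LPS in shGIV Hist2h2aa2 0.26 and Hist2h3c2 0.0781. With the length trend removed, LPS in shC gave Hist1h2bq 0.27, Hist1h2br 0.24 and Hist1h4h 0.16, and LPS in shGIV Hist2h2aa2 0.20 and Hist2h3c2 0.33. When single libraries were left out, LPS in shC ran from -0.69 to 0.26 for Hist1h2bq, -0.68 to 0.27 for Hist1h2br and -0.34 to 0.45 for Hist2h3c2, and LPS in shGIV from -0.20 to 0.31 for Hist1h3i. The falls of Hist1h1c and Hist2h2be after LPS passed the test in 20 of 21 alternatives in shC, all but that with 10 libraries, and in 22 of 22 in shGIV.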
